A study of Mus musculus with 6 samples.

Results

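Smooth muscle cells of the bronchi and pulmonary vessels, and the pericytes that wrap lung capillaries, were followed through 10 genes: Acta2, Actg2, Myh11, Cnn1, Tagln, Lmod1, Des, Myocd, Pdgfrb and Cspg4. They are textbook markers of these cells, but were picked with earlier results of these data known, so counts over them describe and do not test. Every probe whose RefSeq transcript belongs to one of them was taken. The arrays held 15 such probes, and the 10 genes were all among the 32430 genes and unnamed probes tested. The lungs came from 6 male C57BL6 mice, 10 weeks old, which had each received lipopolysaccharide (LPS), the outer membrane component of Gram-negative bacteria, into the peritoneum at 20 mg/kg after 16 h without food. At 3 h and 24 h after LPS, 3 mice received saline and 3 received recombinant antithrombin, the plasma inhibitor of thrombin, at 750 IU/kg, and total RNA of lung tissue was taken at 30 h. Each array held RNA of a single mouse. Lungs of mice without LPS are not analysed here, and both groups carry the LPS exposure.

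Smooth muscle shortens when myosin, with Myh11 as its heavy chain, pulls on thin filaments built of Acta2 and Actg2 actin, and calponin (Cnn1), transgelin (Tagln) and leiomodin (Lmod1) bind those filaments. Desmin (Des) forms the intermediate filaments that hold the contractile bundles in place. The coactivator myocardin (Myocd) binds serum response factor (Srf), which recognises the CArG box, a short element found near many smooth muscle genes. Pericytes depend on Pdgfrb, the receptor through which endothelial Pdgfb recruits them, and carry the proteoglycan NG2, the product of Cspg4, on their surface. Pdgfrb is also made by fibroblasts, Acta2 by myofibroblasts and Des by heart muscle, so no single gene marks 1 cell type. In whole lung, fewer cells of a type and less RNA per cell cannot be told apart.

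Because contractile genes are known targets of Srf, the stretch around the RefSeq start of each gene was read for CArG boxes, from 250 bases before the start to 50 after it (GRCm38.p6). The table of promoters matched 5 of the 10 genes, Acta2, Cnn1, Lmod1, Des and Cspg4. An unbroken CArG box was present in 0 of these 5, and in 1.63% of the 32851 promoters that remained, called all promoters below. With 1 mismatch allowed at any of its 10 positions, matches were present in Acta2, Lmod1 and Cspg4, and in 21.1% of all promoters. The promoters of Acta2, Lmod1 and Cnn1 are shown because the first is the classical smooth muscle promoter, Lmod1 was detected on the antithrombin arrays only, and Cnn1 had the widest difference among members detected in both groups. They read 5′ to 3′ on the strand of the gene, with the matches in capitals.
Acta2 (chr19:34255324-34255623, minus strand): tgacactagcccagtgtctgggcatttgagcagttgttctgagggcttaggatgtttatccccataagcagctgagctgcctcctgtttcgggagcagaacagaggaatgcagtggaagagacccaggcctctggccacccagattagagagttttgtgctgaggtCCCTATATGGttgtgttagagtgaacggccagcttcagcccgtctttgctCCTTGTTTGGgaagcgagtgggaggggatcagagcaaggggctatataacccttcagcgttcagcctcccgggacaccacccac
Lmod1 (chr1:135324563-135324862, plus strand): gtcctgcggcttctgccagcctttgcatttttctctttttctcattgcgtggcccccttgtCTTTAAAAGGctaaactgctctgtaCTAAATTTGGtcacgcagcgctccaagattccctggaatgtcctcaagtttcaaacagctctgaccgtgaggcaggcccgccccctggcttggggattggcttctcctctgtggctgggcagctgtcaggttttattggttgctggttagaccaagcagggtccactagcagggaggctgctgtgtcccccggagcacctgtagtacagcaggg
Cnn1 (chr9:22099003-22099302, plus strand): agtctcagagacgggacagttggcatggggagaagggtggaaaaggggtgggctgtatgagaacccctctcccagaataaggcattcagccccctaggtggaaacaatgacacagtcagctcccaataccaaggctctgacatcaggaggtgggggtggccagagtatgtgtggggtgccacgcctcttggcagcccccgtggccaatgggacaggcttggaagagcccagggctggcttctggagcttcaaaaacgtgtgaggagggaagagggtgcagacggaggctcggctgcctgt
In Acta2 the matches were CCCTATATGG, 84 bases before the start, and CCTTGTTTGG, 34 bases before it. In Lmod1 they were CTTTAAAAGG at 189 bases and CTAAATTTGG at 164 bases before the start. The pair of matches in Cspg4 overlap each other. Cnn1 and Des had none in this window. At least 2 matches, overlapping ones included, were present in 3.70% of all promoters.

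On each array 69.8% to 72.1% of probes were well above background, and the 10 airway and 10 endothelial markers listed were all tested. Saline mouse 2 stood apart from the other saline mice on the first principal component of all genes tested, at 7.85 beside -48.3 and -62.4, with the antithrombin mice at 24.9 to 49.5. Calls and medians that change without it are given with the results.

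Most of the contractile genes had higher signal in the lungs given antithrombin, with Cnn1 at 2.68-fold, Myh11 at 1.64-fold, Acta2 at 1.43-fold and Actg2 at 1.38-fold of the saline mean. Tagln stood at 1.00-fold and Pdgfrb at 0.82-fold. None of the 10 genes passed the adjusted threshold of 0.05 with all 6 mice (limma, Benjamini-Hochberg adjusted p from 0.151 to 0.978), where 0.00617% of all genes tested did. At an unadjusted p under 0.05, 7 of the 10 were higher and 0 lower, where 8.74% of all genes tested were higher and 12.9% lower. The groups did not overlap in 6 of the 10, all with antithrombin higher, against 10.7% of all genes with antithrombin higher and 18.1% with it lower. The median log2 difference, antithrombin minus saline, was 0.57 over the 10 genes and -0.05 over all genes tested. Lmod1 entered the test through its antithrombin arrays alone. With only genes well above background on all 6 arrays, 6 of the 9 remaining members were higher at that p, against 9.23% of all genes, and 0 passed the adjustment, against 0.00335% of all genes.

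**Figure D1:**
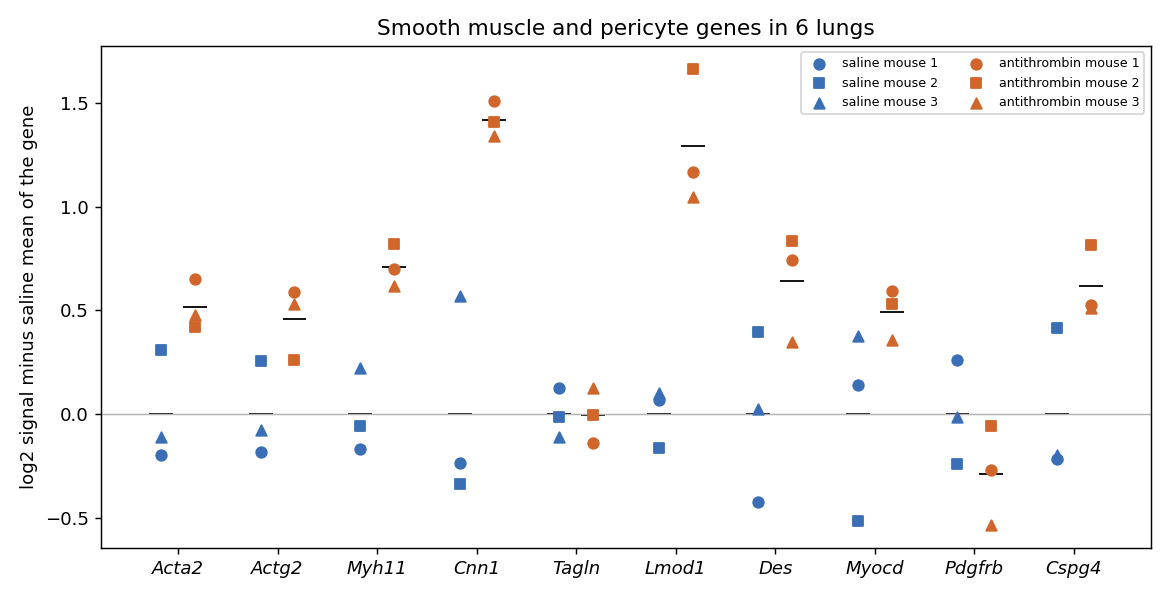
Log2 signal of each gene in each mouse, less the saline mean of that gene (vertical axis, log2 units), for the 10 genes (horizontal axis); blue symbols are saline mice, orange symbols antithrombin mice, and black bars group means. The antithrombin mice lie above all saline mice for Acta2, Actg2, Myh11, Cnn1, Lmod1 and Cspg4, and among or below them for Tagln and Pdgfrb.

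The actins and the myosin heavy chain were considered first. All levels are log2 signals less the 75th percentile of the array, so they compare mice and not genes. Acta2, smooth muscle alpha actin, stood at 3.06, 3.57 and 3.15 in saline mice 1, 2 and 3 and at 3.91, 3.68 and 3.74 in antithrombin mice 1, 2 and 3. The groups did not overlap, but saline mouse 2 lay 0.11 below the lowest antithrombin mouse. The group means were 3.26 ± 0.27 (SD, n = 3) and 3.78 ± 0.12 (SD, n = 3), a log2 difference of 0.52 (SE 0.16, 95% interval 0.13 to 0.90, limma adjusted p = 0.171). The other bright Acta2 probe separated the groups more widely, at 3.14, 3.12 and 3.08 in saline and 3.71, 3.70 and 3.92 in antithrombin mice, a difference of 0.66 (SE 0.11). The remaining, dim probe gave 0.26 (95% interval -0.27 to 0.79), with the groups overlapping and saline mouse 2 lowest at -1.94.

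Actg2, the gamma actin of visceral smooth muscle, stood at 1.85, 2.28 and 1.95 in the saline mice and at 2.62, 2.29 and 2.56 in the antithrombin mice. Saline mouse 2 and antithrombin mouse 2 were separated by only 0.0043, so the groups touched. The difference was 0.46 (SE 0.16, limma adjusted p = 0.184). Within each array Actg2 less Acta2 differed between groups by -0.06 (exact permutation test, two-sided p = 0.6). The actin genes are close paralogs and probe sequences were not used here, so signal shared between their probes cannot be told apart.

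Myh11, the most restricted of the smooth muscle proteins, stood at -1.35, -1.24 and -0.96 after saline and at -0.49, -0.37 and -0.57 after antithrombin. Its spread within groups was small, 0.20 and 0.10 (SD, n = 3), beside a difference of 0.71 (SE 0.14, 95% interval 0.39 to 1.04, limma adjusted p = 0.151). The other Myh11 probes gave 0.62 (SE 0.16) and 0.48 (SE 0.20), both on the higher side. Myh11 stayed higher at an unadjusted p under 0.05 in all 18 alternative fits, as did Cnn1.

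The genes of thin filament binding proteins differed most from each other. Cnn1, which restrains myosin on the filament, stood at 0.02, -0.08 and 0.83 in the saline mice and at 1.77, 1.66 and 1.60 in the antithrombin mice. Saline mouse 3 was the high one of its group, yet it lay 0.77 below the lowest antithrombin mouse. The log2 difference was 1.42 (SE 0.24, 95% interval 0.84 to 2.00, limma adjusted p = 0.151), and a second, much dimmer Cnn1 probe gave 1.48 (SE 0.27). On that dim probe the processed signals were 11.5, 11.6 and 18.9 units after saline and 51.3, 36.6 and 36.0 units after antithrombin, in the same order of groups.

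Lmod1, which nucleates actin filaments, was near the detection limit. Its signals were 9.46, 7.11 and 8.06 units in the saline mice, well above background on 0 of 3 arrays, and 20.4, 27.8 and 17.5 units in the antithrombin mice, well above background on 3 of 3. With saline values raised, where lower, to the lowest signal well above background on their array, it was 2.08-fold higher after antithrombin. Saline mouse 1, at 9.46 units, lay above that signal (9.28 units) without being called. The 2.08 is therefore not a strict lower bound. The fitted log2 difference of 1.29 (SE 0.18, limma adjusted p = 0.151) became 0.23 with normexp background correction. That correction adds a constant before the logarithm and so shrinks the differences of dim probes.

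Tagln, an actin-binding protein that appears early in smooth muscle, stood apart from these genes. Its levels were 4.37, 4.23 and 4.13 after saline and 4.10, 4.24 and 4.37 after antithrombin, with the groups fully interleaved. The difference was -0.01 (SE 0.12, 95% interval -0.30 to 0.29, limma adjusted p = 0.978), and its sign changed with quantile normalization, with median scaling and without saline mouse 1 or antithrombin mouse 1. The interval does not contain the fitted difference of Acta2, Actg2, Myh11 or Cnn1. It does overlap the intervals of Acta2 (0.13 to 0.90) and Actg2 (0.08 to 0.84), and not those of Myh11 and Cnn1. Lmod1 is left out of this comparison, since it entered the test through its antithrombin arrays alone. To compare genes directly, the log2 ratio within each array was taken for 6 pairs chosen after their values were seen, which removes the scaling between arrays. Cnn1 less Tagln differed between groups by 1.43, Myh11 less Tagln by 0.72, Acta2 less Tagln by 0.52 and Cnn1 less Acta2 by 0.90. In each of these pairs the 3 antithrombin mice lay above the 3 saline mice (exact permutation test, two-sided p = 0.1, adjusted p = 0.12 over the 6 pairs). With 3 mice against 3 the smallest p that this test can give is 0.1. In Acta2 less Tagln the groups nearly touched, with the lowest antithrombin mouse at -0.63 and the highest saline mouse at -0.66.

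**Figure D2:**
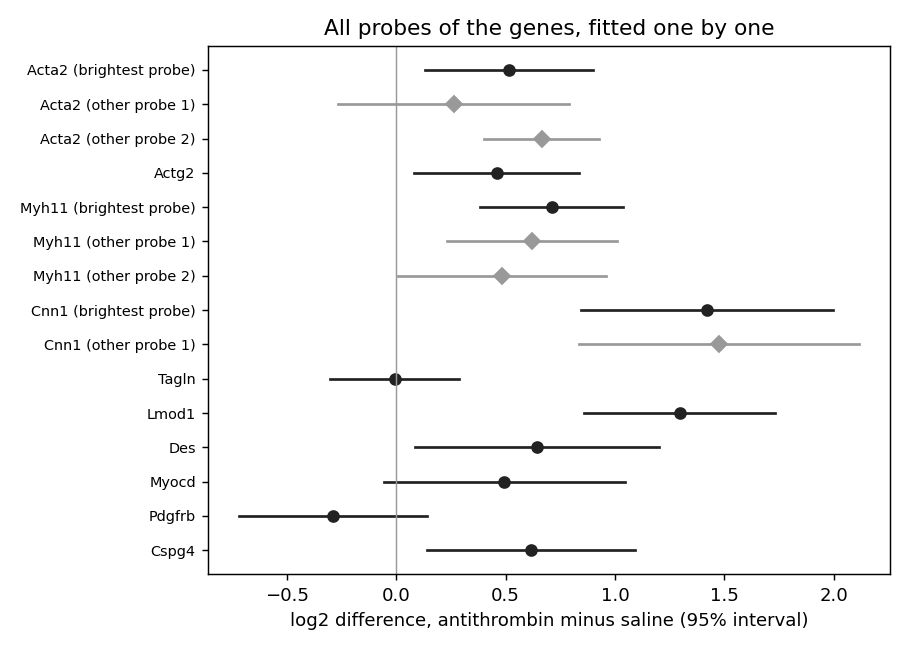
Log2 difference, antithrombin minus saline, with its 95% interval (horizontal axis), for all 15 probes of the 10 genes (vertical axis) when every probe was tested singly; black circles are the brightest probe of a gene and grey diamonds its other probes. The 2 Cnn1 probes lie at 1.42 and 1.48 and the 3 Myh11 probes between 0.48 and 0.71, while the dim Acta2 probe at 0.26 has an interval that spans 0.

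Des stood at -1.19, -0.37 and -0.74 in saline mice and at -0.02, 0.07 and -0.42 in antithrombin mice. Saline mouse 2 lay above antithrombin mouse 3, so the groups overlapped. The difference was 0.64 (SE 0.24, limma adjusted p = 0.197). Heart muscle of the pulmonary veins also makes desmin, and its 10 marker genes varied widely between mice: their mean log2 level, less the saline mean, ran from -1.14 in saline mouse 1 to 0.79 in saline mouse 3 and from -0.09 in antithrombin mouse 3 to 1.37 in antithrombin mouse 2. All 10 were tested and 9 had a positive difference, against 43% of all genes. The unadjusted test called 0 of the 10 in either direction, against 8.74% higher and 12.9% lower of all genes. Saline mouse 1 was lowest and antithrombin mouse 2 highest of their groups both in Des and in these markers, and their part in the Des values was not tested.

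Myocd stood at -3.43, -4.08 and -3.19 after saline and at -2.97, -3.03 and -3.21 after antithrombin, so saline mouse 3 lay above antithrombin mouse 3. Its difference of 0.49 (SE 0.23, 95% interval -0.06 to 1.05, limma adjusted p = 0.264) was 0.24 without saline mouse 2, the lowest mouse. It was also 0.24 with normexp background correction. Without saline mouse 3 it was 0.68, with an unadjusted p of 0.021 (limma, adjusted p = 0.353), and with array weights 0.41, with an unadjusted p of 0.044 (limma, adjusted p = 0.143).

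The 2 pericyte genes had differences of opposite sign, neither past the adjusted threshold. Cspg4 stood at -0.76, -0.13 and -0.74 in saline mice and at -0.02, 0.27 and -0.03 in antithrombin mice, without overlap. Saline mouse 2 came within 0.095 of the lowest antithrombin mouse, and the difference was 0.62 (SE 0.20, 95% interval 0.14 to 1.10, limma adjusted p = 0.177). Pdgfrb stood at 3.37, 2.87 and 3.10 after saline and at 2.84, 3.06 and 2.58 after antithrombin, with the groups overlapping. Its difference was -0.29 (SE 0.18, 95% interval -0.72 to 0.14, limma adjusted p = 0.374), and with each mouse left out it ran from -0.16, without saline mouse 1 or antithrombin mouse 3, to -0.41 without saline mouse 2 and -0.40 without antithrombin mouse 2. Within arrays, Cspg4 less Pdgfrb was higher after antithrombin by 0.90, from -3.66 ± 0.59 (SD, n = 3) to -2.75 ± 0.13 (SD, n = 3). In this pair 3 of 3 antithrombin mice lay above all saline mice (exact permutation test, p = 0.1, adjusted p = 0.12). It is 1 of the 6 pairs chosen after their values were seen, with the opposite signs known, and 0.1 is the smallest p possible. The separation is thus a description and not a test.

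Other genes of the contractile apparatus were taken from a list of 30, all of them tested. Of these, 24 had a positive difference against 43% of all genes tested, and the unadjusted threshold was passed by 6 on the higher side and 0 on the lower, against 8.74% and 12.9% of all genes. None passed the adjustment (limma). The groups did not overlap in 7, all higher, against 10.7% of all genes, and the median difference was 0.20. Without saline mouse 2 the median was 0.29 and 4 genes were higher at an adjusted p under 0.05 (limma), against 4.65% of all genes: Kcnmb1, Myl9, Tpm2 and Ppp1r14a, an inhibitor of myosin phosphatase named here after its values were seen. Kcnmb1, the beta subunit that tunes the calcium-activated potassium channel of smooth muscle, stood at -5.21, -4.42 and -5.31 after saline and at -3.22, -3.13 and -3.65 after antithrombin, a difference of 1.65 (SE 0.27, limma adjusted p = 0.151). Myl9, the regulatory myosin light chain, stood at 3.16, 3.95 and 2.98 after saline and at 4.33, 4.42 and 4.64 after antithrombin, a difference of 1.10 (SE 0.26, limma adjusted p = 0.154). Saline mouse 2 was the highest saline mouse for both, below each antithrombin mouse. Tpm2, a tropomyosin of the thin filament, differed by 0.66 (SE 0.17), and Mrvi1, which relays cyclic GMP signals to calcium stores, by 0.46 (SE 0.15). Further probes gave 0.52 for Tpm2 and 0.63 for Mrvi1.

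**Figure D3:**
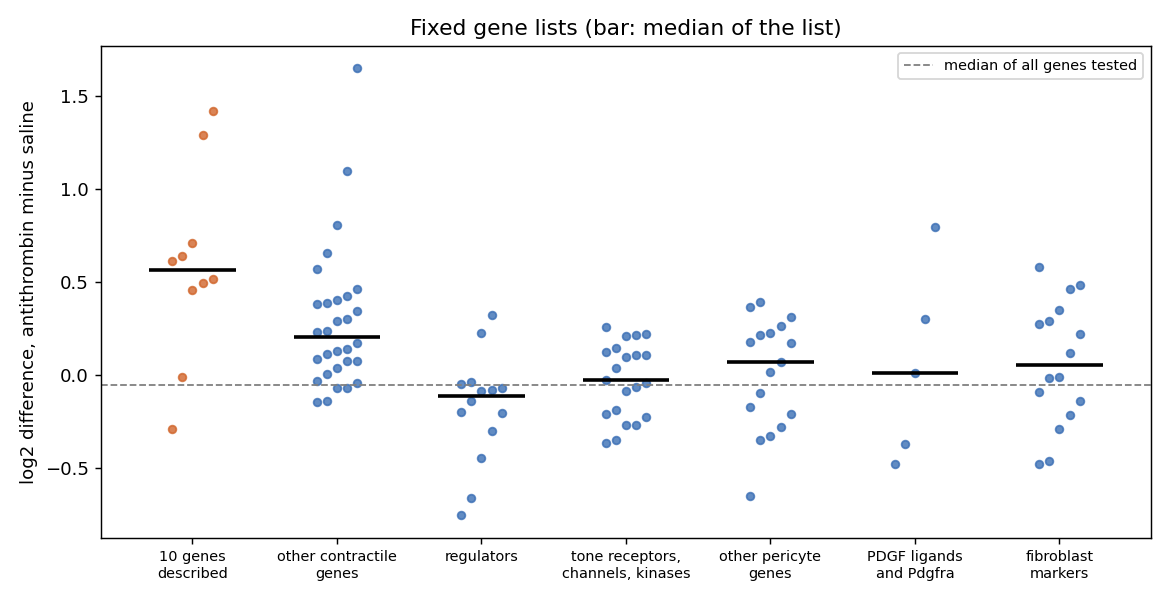
Log2 difference, antithrombin minus saline (vertical axis), of every tested gene of the 10 described and of 6 fixed lists (horizontal axis), with a black bar at the median of each list and a dashed line at the median of all genes tested. The 10 genes have a median of 0.57, the other contractile genes 0.20 and the regulators -0.11, beside -0.05 over all genes.

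Of 14 listed transcription factors and Notch genes that act upstream, 2 had a positive difference, against 43% of all genes: Srf at 0.32 (SE 0.17) and Notch3 at 0.23 (SE 0.12), and 0 passed the unadjusted threshold in either direction. The groups did not overlap in 1, Notch3, on the higher side, and in 2, Mrtfa and Tead1 (named after its values were seen), on the lower, against 10.7% and 18.1% of all genes. The median was -0.11, and -0.23 without saline mouse 2. Without that mouse Srf was higher and Gata6 and Hey1 lower at an adjusted p under 0.05 (limma), against 4.65% higher and 5.89% lower of all genes. The Srf coactivators Mrtfa and Mrtfb, which respond to actin dynamics, stood at -0.14 and -0.08, with other probes of Mrtfb between -0.26 and 0.28. Klf4, which represses contractile genes, stood at -0.20, Gata6 at -0.30, Foxf1 at -0.44 and the Notch targets Hey1 and Hey2 at -0.66 and -0.75. Their relatives Foxf2 and Heyl, both named after their values were seen, stood at -0.05 and -0.03. Of 21 receptors, channels and kinases that set smooth muscle tone, 10 had a positive difference, against 43% of all genes. At an unadjusted p under 0.05, 0 were called in either direction, where 8.74% of all genes were higher and 12.9% lower. The median of the 21 was -0.03, and -0.14 without saline mouse 2. The groups did not overlap in 1 of the 21 on the higher side, Pde5a, and in 1 on the lower, Rock2. The shares over all genes were 10.7% and 18.1%. Rock2, a kinase that keeps myosin phosphorylated, stood at -0.22, and its other probes at -0.07 and 0.05. Gucy1a1, a subunit of the nitric oxide receptor, stood at -0.35. Pde5a, which breaks down cyclic GMP, stood at 0.22 and the calcium channel Cacna1c at -0.27, with other probes of Cacna1c between -0.66 and 0.28.

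Of the 17 genes of the wider pericyte list, all tested, 10 had a positive difference, against 43% of all genes, with a median of 0.07 beside -0.05. The unadjusted threshold was passed by 1 on the higher side and 0 on the lower, against 8.74% and 12.9% of all genes. The higher gene was Vtn, which encodes vitronectin and is also made in liver, at 0.39 (SE 0.13). Trpc6, a cation channel, stood at 0.31, with other probes at 0.37 and -0.31. Rgs5, which curbs G protein signals in pericytes, stood at -0.65 (SE 0.37), and the scores of the list overlapped between groups, from -0.13 to 0.15 in saline and from -0.09 to 0.11 in antithrombin mice. Among PDGF ligands, Pdgfb was higher at an unadjusted p under 0.05, with a difference of 0.80 (SE 0.25, limma adjusted p = 0.173) and no overlap between groups. Of all genes, 8.74% were higher at that p and 10.7% were higher without overlap. Pdgfa stood at 0.31, Pdgfc at -0.37, Pdgfd (named after its values were seen) at 0.01 and the alpha receptor Pdgfra, a fibroblast marker, at -0.48. Without saline mouse 2, Pdgfb was higher and Pdgfra lower at an adjusted p under 0.05 (limma), against 4.65% higher and 5.89% lower of all genes. In that fit the median of the 5 PDGF genes went from 0.01 to 0.28.

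Single mice moved the calls, and not the same mouse for every gene. Of the saline mice, mouse 2 was highest in Acta2, Actg2, Des and Cspg4, while mouse 3 was highest in Myh11, Cnn1, Lmod1 and Myocd. Saline mouse 1 was lowest in Acta2, Actg2, Myh11, Des and Cspg4. Without saline mouse 1, 3 members were higher at an unadjusted p under 0.05, Myh11, Cnn1 and Lmod1, against 5.86% of all genes. Without antithrombin mouse 1, 4 members were, Myh11, Cnn1, Lmod1 and Cspg4, against 6.83% of all genes. Without saline mouse 3 or antithrombin mouse 2, 5 members were (backgrounds of 5.79% and 6.67%), without antithrombin mouse 3, 6 (5.64%), and without saline mouse 2, 7 (13.5%). With saline mouse 2 left out, 5 members were also higher at an adjusted p under 0.05 (limma), Acta2, Myh11, Cnn1, Lmod1 and Cspg4, against 4.65% of all genes. Array weights, which gave saline mouse 2 the lowest weight of 0.39, put 6 members past it, those 5 and Des, against 3.44% of all genes. Lmod1 entered these fits through the antithrombin arrays alone. Counted over the other 9 members, 4 passed without saline mouse 2 and 5 with array weights, and with each mouse left out 2 to 6 were higher at an unadjusted p under 0.05. Leaving out saline mouse 2 widened the difference of Acta2 to 0.67 and of Cspg4 to 0.83. It narrowed those of Myh11 to 0.68, Cnn1 to 1.25 and Lmod1 to 1.21, so these passed the adjusted threshold with smaller differences than in all 6 mice.

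**Figure D4:**
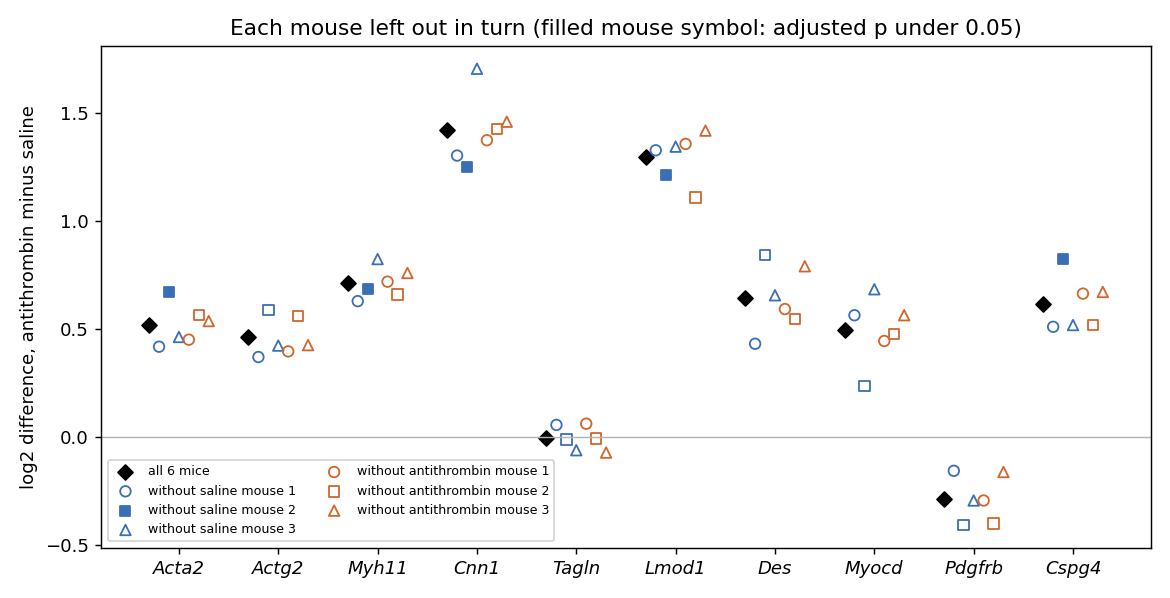
Log2 difference, antithrombin minus saline (vertical axis), of each gene (horizontal axis) with all 6 mice (black diamonds) and with each mouse left out in turn (blue, saline; orange, antithrombin; a filled coloured symbol marks an adjusted p under 0.05). Filled symbols appear only without saline mouse 2, for Acta2, Myh11, Cnn1, Lmod1 and Cspg4.

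Markers of the tissues that surround airway and vessel smooth muscle varied with the mouse as well. The score of a list is the mean log2 level of its tested genes less their saline mean. Of 10 airway epithelial markers, all tested, 3 were higher at an unadjusted p under 0.05, against 8.74% of all genes. The airway score was -1.09, 0.84 and 0.25 in saline mice 1, 2 and 3 and 0.86, 1.04 and 0.22 in the antithrombin mice. Scgb3a1, a secretory protein of the airways, was low in saline mouse 1 alone, at 0.89, 8.05 and 7.17 after saline and 7.80, 7.88 and 6.90 after antithrombin. Dnah5 and Tppp3, genes of ciliated cells, differed by 0.60 and 0.44, without overlap between groups. Foxj1, a further gene of ciliated cells on the list (named after its values were seen), differed by 0.10, with the groups overlapping. Of 7 cartilage markers 4 were tested, and 1 was higher at that p, Chad at 1.22 (SE 0.45), beside the same 8.74% of all genes. Matn1 and Cnmd were well above background on 0 arrays and Acan on 1. The cartilage score ran from -0.23 to 0.38 in saline and from 0.33 to 0.46 in antithrombin mice. The score of the 30 contractile genes was -0.15, 0.13 and 0.02 in the saline mice and 0.26, 0.35 and 0.25 in the antithrombin mice, without overlap. Saline mouse 1 was thus lowest of the saline mice in the contractile and airway lists, and the part of airway content in the contractile values was not tested.

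Markers of other cells of the lung gave mixed values. With all 6 mice, the unadjusted test called 8.74% of all genes higher and 12.9% lower. A positive difference was found in 43% of all genes, whose median was -0.05. These shares stand beside the counts of each list below. The fibroblast list of 16 had 2 genes higher at an unadjusted p under 0.05, Col13a1 at 0.49 and Meox2 at 0.29, 0 lower, and a median of 0.06. Of 8 mesothelial markers 1 was lower, Upk1b at -0.73, and of 10 endothelial markers 2 were lower, Erg at -0.55 and Esam at -0.32, with a median of -0.14. Of 10 skeletal muscle markers 7 were tested, all with a positive difference, and 1 was higher, the actin Acta1 at 0.76 (SE 0.11), from -2.38 ± 0.02 (SD, n = 3) to -1.62 ± 0.14 (SD, n = 3). The defining skeletal myosins Myh1, Myh2 and Myh4 were below the detection call on each array. Of 10 neutrophil markers 9 were tested, 8 had a positive difference and 3 were higher, among them Camp at 1.21 (SE 0.32). The neutrophil score was -0.21 to 0.36 in saline and 0.50 to 0.59 in antithrombin mice, without overlap. Without saline mouse 2, the median of the airway list went from 0.52 to 0.80 and that of the skeletal list from 0.22 to 0.34. In that fit Scgb3a2, Chad, Acta1 and Camp were higher, and Upk1b, Npnt and Pdgfra lower, at an adjusted p under 0.05 (limma). Of all genes, 4.65% were higher and 5.89% lower at that threshold. The part of these cells in the contractile values was not tested.

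**Figure D5:**
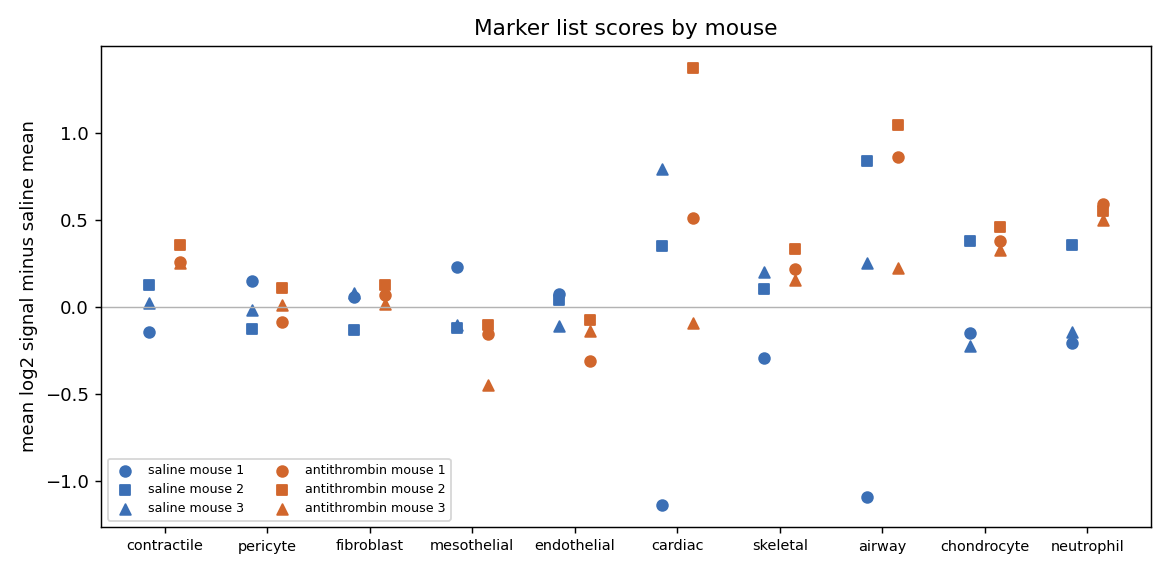
Mean log2 signal of the tested genes of a marker list less their saline mean (vertical axis), for each mouse and list (horizontal axis; "contractile" and "pericyte" leave out the 10 genes described); blue symbols are saline mice and orange symbols antithrombin mice. Saline mouse 1 stands lowest in the contractile, cardiac, skeletal, airway and neutrophil lists. The scores of the groups do not overlap in the contractile and neutrophil lists.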

How the data were processed

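RNA from 6 lungs was hybridised to one-colour Agilent arrays, 1 per mouse, all on 1 slide with 1 scan date, so no slide or scan batch could be tested. The deposited scanner files hold spot intensity, made with Agilent Feature Extraction 10.7.3.1 per the file headers (9.1 in the submitters' processing notes). The processed signal is background-subtracted and not scaled between arrays. The authors' deposited value table holds log2 values, which equalled the log2 processed signal within 0.01 for 100% of values once each probe's constant and each array's shift were removed; the origin of that constant is not known. Column medians ran from -0.04 to 0.08.

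The members and lists were chosen with earlier results of these data known. Control and outlier spots were left out, spots of a probe averaged on the log2 scale, and each array's 75th percentile over non-control probes subtracted. Accessions matched RefSeq of GRCm38.p6 for 32994 of 56605 probes. The match served for names only, since the array design uses another build; promoter sequences and their coordinates are those of RefSeq. The brightest probe stood for a gene, and a gene was tested if that probe was well above background on at least 3 arrays and measured on all 6; 27 genes failed the latter. Differences were tested two-sided in limma 3.58.1 (lmFit, then eBayes; R 4.3.3), with Benjamini-Hochberg adjustment over the 32430 tested; other probes of a member come from a fit of every probe. Between 69.8% and 72.1% of probes per array were well above background and 0 saturated; 3 mice per group limit the precision. Named genes were the 10 members, up to 4 tested genes of each list with the smallest p, 8 regulators and pericyte genes set by name, and the 4 genes nearest to Myh11 and to Pdgfrb. The fit was tested on simulated data.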

Additional observations from a re-analysis of the deposited data

How the results depend on the processing

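With 18 alternatives, the 9 members other than Tagln kept the sign of their difference wherever they were tested; Lmod1 was not tested when detection on all 6 arrays was required. The difference of Tagln became 0.047 with quantile normalization and 0.011 with median scaling, and ran from -0.073 to 0.061 with each mouse left out, positive without saline mouse 1 or antithrombin mouse 1. Leaving out each mouse gave 0 to 5 members past the adjusted threshold, 3 to 7 members higher at an unadjusted p under 0.05 and a median difference of 0.47 to 0.68; the extremes came without saline mice 1 and 2. Array weights gave 6 members past the threshold and a median of 0.70. No label pairs the mice by number. Correlations of deviations from the group mean were -0.01, -0.16 and -0.28 between same-numbered mice, and -0.10 to 0.28 between the others. Such deviations cancel over the mice of a group, so they cannot settle whether mice were paired. With the number as a replicate block 0 members passed and 6 were higher at an unadjusted p under 0.05, Actg2 no longer among them. That share was 6.6% of all genes, and 0 genes passed the adjustment. Lmod1 and Myocd, the dimmest members, were limited by signal over background; the remaining choices left each count of members within 1.5 times of the main one.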

Other observations

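Over the 6 arrays, the genes whose values lay nearest to those of Myh11, each less its own mean, were Sncg, Kcna2, Wdr54 and Fam47e, at root mean square differences of 0.10, 0.10, 0.10 and 0.11 on the log2 scale, among 15943 named genes. The spread of Myh11 over the arrays was 0.42 (SD). Nearest to Pdgfrb were Stard8, Gpx7, Psg23 and Fnbp1l, at 0.04, 0.04, 0.05 and 0.05. All these genes share the same 6 libraries and the same scaling, so the likeness is a description.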
